A study of Arabidopsis thaliana with 6 samples.

Results

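The ALMT genes of Arabidopsis thaliana encode aluminium-activated malate transporters, membrane channels that pass malate and other anions. Transcript levels of 10 of the 14 ALMT genes are described here in roots, out of 29613 gene IDs counted. The 10 genes were named by locus with one count in view, the absence of ALMT12 counts in 35S:NPC48 roots. They were thus chosen by a value of the comparison between genotypes, and their differences between genotypes are given as a description. Where a fit over all genes called members between genotypes, the count stands beside the share of all genes called and supports nothing about the members. The genes are ALMT1 (AT1G08430), ALMT2 (AT1G08440), ALMT3 (AT1G18420), ALMT4 (AT1G25480), ALMT5 (AT1G68600), ALMT6 (AT2G17470), ALMT9 (AT3G18440), ALMT10 (AT4G00910), ALMT12 (AT4G17970) and ALMT13 (AT5G46600).

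PolyA RNA was sequenced from roots of a line that expresses NPC48, a non-protein-coding RNA, from the viral 35S promoter (35S:NPC48, 3 libraries), and of wild type (WT, 3 libraries). The 35S promoter drives expression in most plant cells. How many independent transformants the line stands for is not given in the sources used here. The Col-0 ecotype is stated in the labels of the WT samples. All 6 samples carry the same growth labels: phosphate at 500 µM in the medium, days of 16 h at 24 °C and nights of 8 h at 21 °C, 33% humidity, no treatment, and growth stage Boyes 1.0. Each genotype has replicates numbered 1, 2 and 3. No label says that they are separate cultures, so the spread behind each p-value may be a technical one between libraries. Total counts were 9479418 in 35S:NPC48 replicate 1 and 20120659 to 20789863 in its other replicates, against 21055370 to 23830604 in WT. The NPC48 transcript itself matched 0 annotated names, so its overexpression was not checked.

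In plants, ALMT channels move malate, chloride and other anions across the plasma membrane or the vacuolar membrane. ALMT1 releases malate from the root tip, where malate binds toxic aluminium, and its transcription depends on the zinc finger factor STOP1. ALMT3 acts in root hairs, where it releases malate when phosphate is scarce. ALMT4, ALMT6 and ALMT9 are vacuolar channels studied mostly in guard cells, ALMT12 (also QUAC1) is the rapid-type anion channel of the guard cell plasma membrane, and ALMT13 and ALMT14 are known from pollen tubes. No role is given here for ALMT2, ALMT5 or ALMT10.

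The gene models lie on all 5 chromosomes, and 9 of the 10 genes have 6 annotated exons (ALMT3 has 7). Positions, gene models and sequences are those of RefSeq for TAIR10.1, found by gene ID. ALMT1 and ALMT2 are tandem neighbours on chromosome 1, at 2658602 to 2661310 and 2662967 to 2665584, with 1656 bp between them. Their coding sequences are 86.7% identical, the highest value among the pairs of ALMT genes compared, which left out the short ALMT11. The longest identical stretch in these coding sequences, coding bases 158 to 194 of ALMT1 and 149 to 185 of ALMT2, is shown. It is 37 bases long. Untranslated parts and stretches with mismatches were not searched, so it does not bound the reads that could fit either gene.
ALMT1 and ALMT2: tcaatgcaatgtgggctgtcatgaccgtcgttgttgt

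The 300 bases before the annotated start are shown for 3 of the members, ALMT1, ALMT10 and ALMT12. They were searched on both strands for GNATATNC, the P1BS motif bound by factors of the PHR1 kind in phosphate signalling, and for TTGAC, the core of the W-box bound by WRKY factors. Matches are in capitals, and these 3 windows hold none of either motif.
ALMT1, chr1:2658302-2658601, plus strand: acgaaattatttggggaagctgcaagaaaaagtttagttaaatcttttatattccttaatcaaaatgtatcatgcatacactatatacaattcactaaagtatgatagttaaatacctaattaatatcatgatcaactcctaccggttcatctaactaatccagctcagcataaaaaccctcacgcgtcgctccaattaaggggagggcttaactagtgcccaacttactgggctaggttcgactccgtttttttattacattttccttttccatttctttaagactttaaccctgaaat
ALMT10, chr4:391442-391741, minus strand: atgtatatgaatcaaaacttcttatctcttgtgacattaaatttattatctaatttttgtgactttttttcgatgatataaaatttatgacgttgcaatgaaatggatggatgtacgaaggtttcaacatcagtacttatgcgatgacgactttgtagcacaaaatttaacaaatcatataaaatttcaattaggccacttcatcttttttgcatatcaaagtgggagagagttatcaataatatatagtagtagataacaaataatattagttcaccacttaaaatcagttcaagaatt
ALMT12, chr4:9975065-9975364, plus strand: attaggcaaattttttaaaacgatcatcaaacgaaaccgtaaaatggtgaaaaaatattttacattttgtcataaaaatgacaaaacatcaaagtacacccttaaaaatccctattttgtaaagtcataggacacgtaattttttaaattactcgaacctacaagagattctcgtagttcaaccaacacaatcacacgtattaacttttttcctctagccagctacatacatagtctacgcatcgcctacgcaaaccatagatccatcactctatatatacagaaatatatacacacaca

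Of the 10 ALMT genes 0 had GNATATNC in these 300 bases, or in the 1000 bases before the start. The share over all 27561 protein-coding genes was 6.51% for 300 bases and 20.3% for 1000. In the low-phosphate list 3 of 11 genes had it within 300 bases and 6 of 11 within 1000. One match of each of the 3 is shown for comparison, with 10 bases on either side. Of the ALMT genes not listed above, ALMT14 had 1 match, 53 to 46 bases before its start. The W-box core was found in 3 of the 10 windows (ALMT4, ALMT6 and ALMT9), against 50.4% of all protein-coding genes. The motifs do not overlap each other, and a match is a description of these letters.
SPX3, chr2:18606187-18606214, plus strand: attagagaccGAATATGCcagaggattt
AT4, chr5:894546-894573, plus strand: ttggtaattgGCATATTCcttttagaag
PLDZ2, chr3:1635004-1635031, plus strand: taaccaagttGCATATACacggcagggt

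In roots of both genotypes ALMT1 had the highest transcript level of the family per length. Levels between genes are compared as CPM (read counts scaled to a common library size, with TMM factors) per kilobase of coding length. ALMT1 stood at 86.1 ± 29.3 CPM per kb in 35S:NPC48 and 76.3 ± 25 CPM per kb in WT (SD, n = 3 each). ALMT10, at 24.8 ± 16.9 CPM per kb in 35S:NPC48 and 21.1 ± 16.4 in WT, and ALMT9, at 21.4 ± 1.48 in 35S:NPC48 and 25.6 ± 2.61 in WT, did not differ from each other beyond their spread. ALMT3 (11.5 ± 2.97 CPM per kb in 35S:NPC48, 13.6 ± 5.27 in WT) and ALMT4 (11.3 ± 1.51 in 35S:NPC48, 12.1 ± 0.602 in WT) likewise lay within each other's spread. ALMT13 followed with 3.62 ± 0.746 CPM per kb in 35S:NPC48 and 4.18 ± 1.29 in WT. ALMT12 reached 1.64 ± 1.07 CPM per kb in WT and had no count in 35S:NPC48. ALMT1 lay above each other member in all 6 libraries, since its lowest value of 48.7 CPM per kb, in WT replicate 1, exceeded the highest ALMT10 value of 39.9 CPM per kb, in 35S:NPC48 replicate 1.

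**Figure D1:**
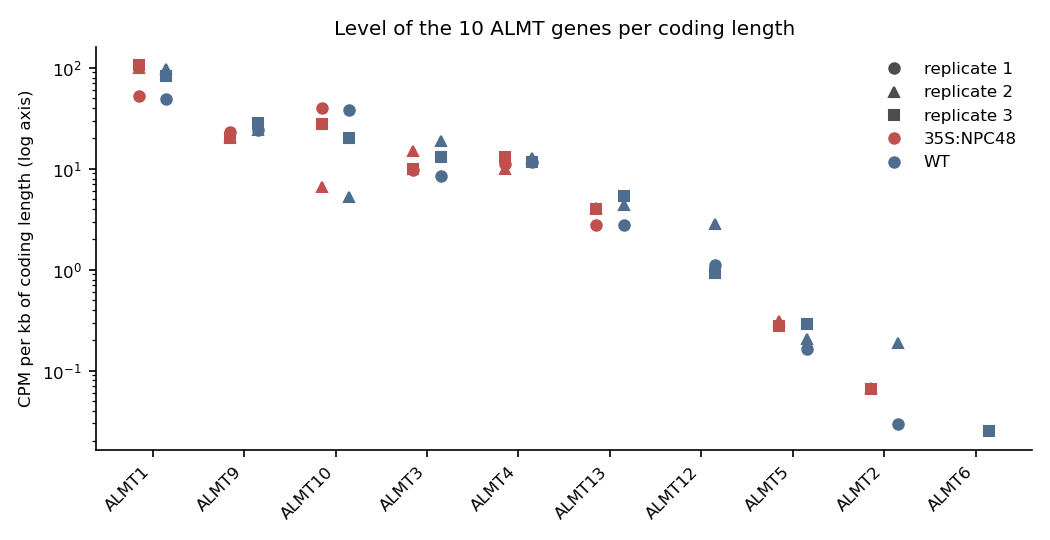
CPM per kilobase of coding length of the 10 ALMT genes, on a log axis, in 35S:NPC48 (left of each pair) and WT (right), with one symbol per replicate. Libraries without a count cannot be drawn on this axis and are left out. ALMT1, at 48.7 to 106 CPM per kb, lies above every other member in all 6 libraries, and ALMT10 spans 5.30 to 39.9 CPM per kb.

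ALMT5, ALMT2 and ALMT6 were near the limit of detection and did not pass the filter on low counts, so 7 of the 10 members were tested for anything below. ALMT5 had 0, 10 and 9 counts in 35S:NPC48 replicates 1, 2 and 3 and 6, 7 and 11 counts in those of WT. Pooled over libraries this is 0.385 CPM in 35S:NPC48 (exact Poisson 95% interval 0.232 to 0.602) and 0.357 CPM in WT (0.228 to 0.531), and these intervals cover counting error only. The intervals overlap over most of their length. ALMT2 had 4 counts in all in 35S:NPC48 (0.0811 CPM, interval 0.0221 to 0.208) and 7 in WT (0.104 CPM, interval 0.0418 to 0.214). Since ALMT1 had 6815 counts in 35S:NPC48 and 7577 in WT, and no source used here says how reads that match several genes were counted, the few ALMT2 counts cannot be told apart from reads of its neighbour. ALMT6, the guard cell vacuolar channel, had 0 counts in 35S:NPC48, where a total of 3 counts would be 0.0609 CPM, and 1 count in WT. Of the family members outside the 10, ALMT8 and ALMT11 had 0 counts in all 6 libraries, ALMT7 had 1 count in each genotype, and ALMT14 had 2 counts in 35S:NPC48 and 3 in WT.

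The tissue labels were compared with markers of root, guard cells, green shoot and pollen. All 7 root markers passed the filter. Of 14 guard cell markers, 6 (FAMA, KAT1, SLAC1, TGG2, MUTE and EPF1) were at 0 in every library. The summed guard cell level was 84.0 to 99.1 CPM in 35S:NPC48 and 61.8 to 92.2 CPM in WT, nearly all of it from CYP86A2, a cutin synthesis gene, at 82.9 to 97.3 CPM in 35S:NPC48 and 60.7 to 91.4 CPM in WT. The 8 shoot genes, all above the filter, summed to 144, 76.8 and 67.4 CPM in 35S:NPC48 replicates 1, 2 and 3, against 57.9, 46.4 and 126 CPM in those of WT. The highest sums were thus in 35S:NPC48 replicate 1 and WT replicate 3. The 4 pollen markers summed to 0.15 to 0.533 CPM in 35S:NPC48 and 0.0445 to 0.142 CPM in WT, with ANX2 at 0.

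ALMT12 transcripts were found in every WT library and in no 35S:NPC48 library. Counts of ALMT12 were 0, 0 and 0 in 35S:NPC48 replicates 1, 2 and 3, against 42, 102 and 37 in WT replicates 1, 2 and 3. In WT these are 1.87, 4.84 and 1.56 CPM, a mean of 2.75 ± 1.81 CPM (SD, n = 3). The genotypes do not overlap. At the WT mean, the depths of 35S:NPC48 replicates 1, 2 and 3 correspond to 25.9, 54.9 and 55.1 counts. Taking 3 counts over the group of 35S:NPC48 libraries as the floor, ALMT12 was at least 45.3-fold lower in 35S:NPC48. The bound is 28.2-fold without WT replicate 2, the library with most of its counts. In bulk roots, fewer cells that express a gene and less RNA per cell cannot be told apart. Of the 14 guard cell markers, 6 stood at 0 in both genotypes, among them KAT1, SLAC1 and FAMA. The filter was passed by 2 others, CYP86A2 and HT1, with HT1 at 45 counts in 35S:NPC48 and 44 in WT. The rest, such as MYB60 with 14 counts in 35S:NPC48 and 17 in WT, had counts but did not pass. Whether the roots held guard cells was not tested.

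ALMT12 lies on chromosome 4 at 9975365 to 9978023, and the annotated genes on either side of it are described here. The nearest expressed gene, AT4G17960, ends 2850 bp away and stood at 5.43, 6.68 and 7.05 CPM in 35S:NPC48 replicates 1, 2 and 3, against 7.66, 7.44 and 7.46 CPM in those of WT. Its genotypes do not overlap, as for 7.76% of all tested genes, with a log2 difference of -0.23, and it was not called. On the same side AT4G17950 differed by -0.05 and AT4G17940 by -0.08 on the log2 scale. On the other side the nearest gene to pass the filter was IP5PII, a phosphoinositide phosphatase gene 12964 bp away. IP5PII differed by -0.21 and the pseudo-response regulator APRR2 by -0.01. The tRNA gene AT4G17975, only 82 bp away, and AT4G17990 had 0 CPM in every library, while NAC071 and AT4G17920 did not exceed 0.10 CPM. AT4G17915 was not analysed here. Of these 10 annotated neighbours, 5 passed the filter. Between genotypes edgeR called 0 of them without a block (0.0102% of all tested genes) and 0 with the replicate block (1.21% of all). With so few calls over all genes, 0 of 5 cannot show whether the difference is confined to ALMT12.

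**Figure D2:**
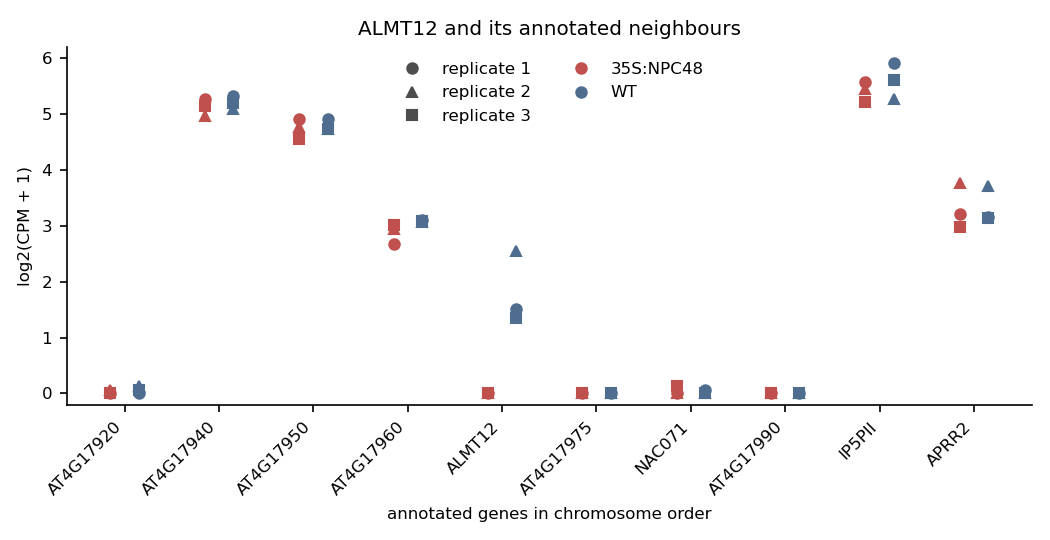
Level of ALMT12 and its annotated neighbours on chromosome 4, in chromosome order, as log2(CPM + 1), in 35S:NPC48 (left of each pair) and WT (right), with one symbol per replicate. ALMT12 is at 0 in all 3 35S:NPC48 libraries and at 1.56 to 4.84 CPM in WT, while the expressed neighbours lie close together in both genotypes.

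None of the 6 other tested members was called between genotypes in the fits described here. Counts of called members are set beside the share of all 19608 tested genes, and since the choice of members used this comparison nothing is read from them. Without a block, the quasi-likelihood test of edgeR with Benjamini-Hochberg adjustment called (adjusted p under 0.05) 0 of the 7 members (0.0102% of all tested genes), and limma-voom called 0. With the replicate number as a block it called 1, ALMT12 (1.21% of all), and DESeq2 also called 1, ALMT12 (0.801% of all). The genotypes did not overlap for 2 of the 7 members, ALMT12 and ALMT9 (7.76% of all). The median log2 difference of the 7 members was -0.20, beside 0.01 over all tested genes.

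ALMT9, the vacuolar malate and chloride channel, stood at 41.6, 37.4 and 36.6 CPM in 35S:NPC48 replicates 1, 2 and 3, against 43.1, 43.4 and 51.4 CPM in those of WT. All 35S:NPC48 libraries lay below all WT libraries, by a log2 difference of -0.26 ± 0.13 (SE). Within replicates the log2 differences were -0.05, -0.21 and -0.49 in replicates 1, 2 and 3. ALMT4, also vacuolar, stood at 18.2, 16.5 and 21.4 CPM in 35S:NPC48 and 19.3, 21.0 and 19.3 CPM in WT, and the genotypes overlap (log2 difference -0.09 ± 0.15). ALMT13 stood at 4.48, 6.63 and 6.50 CPM in 35S:NPC48 and 4.54, 7.11 and 8.68 CPM in WT (log2 difference -0.20 ± 0.29). Both genotypes were lowest in replicate 1.

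For ALMT1, ALMT3 and ALMT10, as for ALMT13 above, the same replicate number was the lowest or the highest in both genotypes. The share of all genes with this trait was not counted, so nothing about the members is read from it. ALMT1 stood at 77.8, 147 and 158 CPM in 35S:NPC48 replicates 1, 2 and 3, and at 72.2, 144 and 123 CPM in those of WT. In both genotypes replicate 1 was lowest, and the difference between genotypes was 0.18 ± 0.34 on the log2 scale. ALMT3 stood at 17.0, 26.1 and 17.2 CPM in 35S:NPC48 and 14.9, 33.2 and 22.9 CPM in WT, with replicate 2 highest in both and a genotype log2 difference of -0.23 ± 0.31. ALMT10 stood at 58.2, 9.54 and 40.8 CPM in 35S:NPC48 and 55.5, 7.73 and 29.2 CPM in WT, with replicate 2 lowest in both. Its genotype log2 difference was 0.22 ± 0.77, and 0.28 ± 0.11 with the replicate block.

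**Figure D3:**
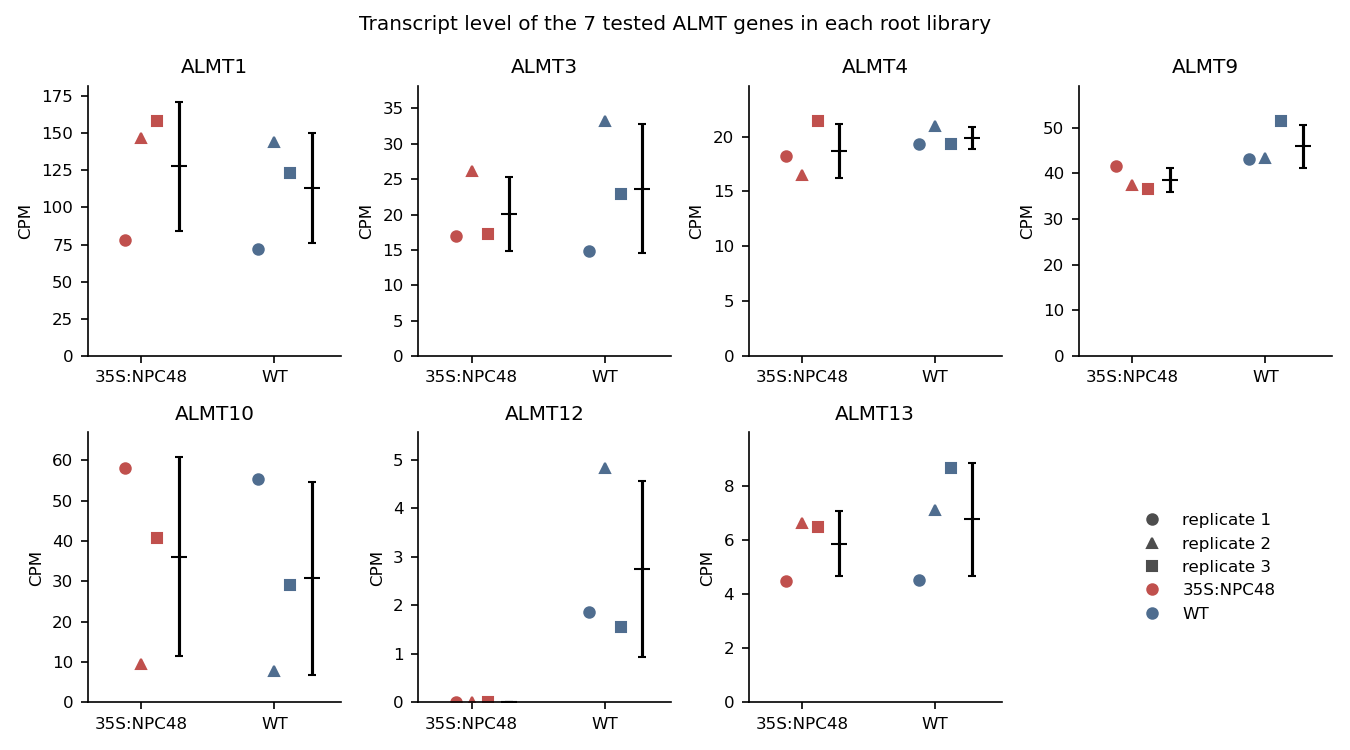
CPM of the 7 tested ALMT genes in each library, 35S:NPC48 left and WT right in each panel, with one symbol per replicate and the mean ± SD (n = 3) as a bar. ALMT12 is at 0 in 35S:NPC48, ALMT9 is lower in 35S:NPC48 without overlap, and in ALMT10 the replicate 2 libraries (9.54 CPM in 35S:NPC48, 7.73 CPM in WT) lie far below the others.

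Replicate 2 of both genotypes stood apart in phosphate-response genes, although every sample is labelled with the same 500 µM phosphate. All 10 tested genes of an 11-gene low-phosphate list were higher in replicate 2 than in replicates 1 and 3, by a median of 4.65 on the log2 scale. IPS1, a non-coding RNA of the phosphate starvation response, was at 313 CPM in 35S:NPC48 replicate 2 and 393 CPM in WT replicate 2, and between 0.267 and 0.650 CPM in the 4 other libraries. SPX1, a phosphate-sensing regulator, differed by 7.04 and MGD3, a galactolipid synthase gene, by 6.49 on the log2 scale. Replicate 2 was set against the others because these values were known, and what sets it apart is not given in the labels. The contrast was fitted across all tested genes with genotype and replicate number as terms. Its errors and p-values rest on how alike the shift was in the 2 genotypes. They do not measure variation between replicate numbers, since replicate 2 is a single one. The choice of ALMT members did not use the contrast, and the part of the phosphate response in the values below was not tested.

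Of the 7 tested members, 3 were higher in replicate 2 (14.2% of all tested genes) and 1 was lower (12.2%), by edgeR's quasi-likelihood test with Benjamini-Hochberg adjustment. In either direction 26.4% of all tested genes were called. ALMT12, one of the 3, had passed the filter through WT alone and has counts in a single replicate 2 library. Of the other 6 members, 2 were higher and 1 was lower. Without choosing a replicate, the test of any difference among the 3 replicate numbers, added after seeing the data, called ALMT1, ALMT3 and ALMT10, which is 3 of 7 members (21.0% of all). The median log2 value of the 7 members in the replicate 2 contrast was 0.24, beside -0.01 over all tested genes. Since this median includes ALMT12, at 1.49, nothing is read from it. The other 6 members ran from -2.37 (ALMT10) to 0.73 (ALMT3). The CPM of replicate 2 did not overlap those of replicates 1 and 3 for ALMT3 and ALMT10 (42.6% of all).

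ALMT10 was lower in replicate 2 by 2.37 ± 0.14 on the log2 scale (edgeR, adjusted p = 2.62e-05), which is 5.18-fold. Replicate 2 was 5.19-fold below the mean of replicates 1 and 3 within 35S:NPC48 and 5.48-fold below it within WT. Against replicate 1 alone the log2 difference was -2.73 ± 0.15, and against replicate 3 alone -2.01 ± 0.15. ALMT10 was called lower in all 15 alternative settings, with log2 values between -2.75 and -2.01. An annotated gene on the opposite strand, AT4G00905, covers 1953 bp of ALMT10 (chromosome 4, 387388 to 391441), and without a stated strand setting reads of the pair cannot be told apart. AT4G00905 was at 7.35, 6.83 and 6.85 CPM in 35S:NPC48 replicates 1, 2 and 3 and at 7.21, 7.30 and 5.94 CPM in those of WT, and was not called (log2 0.05 ± 0.17, edgeR adjusted p = 0.851).

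ALMT3, the root hair malate channel, was higher in replicate 2 by 0.73 ± 0.14 on the log2 scale (edgeR, adjusted p = 0.00927), which is 1.66-fold. Replicate 2 was 1.52-fold the mean of replicates 1 and 3 in 35S:NPC48 and 1.76-fold in WT. The difference was called against replicate 1 alone (0.90 ± 0.18) and against replicate 3 alone (0.56 ± 0.17). It was not called without 35S:NPC48 replicate 2 (0.84, edgeR adjusted p = 0.0598) or without WT replicate 2 (0.61, adjusted p = 0.101), when the replicate rests on 1 library. The non-coding RNA AT1G18415 on the opposite strand covers all 2360 bp of ALMT3 (chromosome 1, 6343330 to 6345689). It was at 5.86, 6.57 and 4.20 CPM in 35S:NPC48 replicates 1, 2 and 3, against 8.50, 7.63 and 5.86 CPM in those of WT (replicate 2 contrast 0.25 ± 0.17, edgeR adjusted p = 0.324). The root hair genes COBL9 and EXPA7, from the list of root markers, were higher in replicate 2 by 0.88 and 0.66 on the log2 scale, and their part in the ALMT3 result was not tested.

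ALMT1 was higher in replicate 2 than in the mean of replicates 1 and 3 by 0.51 ± 0.10 on the log2 scale (edgeR, adjusted p = 0.0102), a 1.43-fold difference that rests on replicate 1. Replicate 2 exceeded replicate 1 by 0.96 ± 0.12 (adjusted p = 0.00199) and differed from replicate 3 by 0.07 ± 0.12 (adjusted p = 0.728). Replicate 3 differed from replicate 1 by 0.89 ± 0.12, with an adjusted p of 0.155 in a contrast that edgeR called for 0 genes, with 2659 at an unadjusted p under 0.05. That contrast was added after seeing the data. The libraries of replicate 1 were thus the ones that stood apart in ALMT1, at 77.8 CPM in 35S:NPC48 and 72.2 CPM in WT, below the 123 to 158 CPM of the 4 others. Replicate 1 was also lowest in both genotypes for 6 of the 11 low-phosphate genes (IPS1, AT4, PHT1;4, SQD1, MGD3 and PAP17), though far less apart from replicate 3 than from replicate 2. Some were nearly tied, such as PHT1;4 at 39.9 and 40.3 CPM in 35S:NPC48 replicates 1 and 3. SQD2 and PLDZ2 were lowest in replicate 3 of both genotypes, and for SPX1, SPX2 and SPX3 the genotypes differed. The share of all genes lowest in replicate 1 was not counted, and a link to ALMT1 was not tested. ALMT1 was not called without 35S:NPC48 replicate 2 (0.62, edgeR adjusted p = 0.0807), without WT replicate 2 (0.41, adjusted p = 0.226), without both libraries of replicate 1 (0.07, adjusted p = 0.789) or with a term for replicate 2 alone (0.44, adjusted p = 0.283).

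For ALMT12, which had 0 counts in 35S:NPC48, the contrast compares WT libraries alone, and nothing is read from its call. WT replicate 2, at 4.84 CPM, was 2.82-fold the mean of WT replicates 1 and 3. The fitted log2 value was 1.49 with WT replicate 2 and -0.04 without it. ALMT4 (-0.06 ± 0.14, edgeR adjusted p = 0.768), ALMT9 (-0.09 ± 0.12, adjusted p = 0.60) and ALMT13 (0.24 ± 0.18, adjusted p = 0.361) were not called. For ALMT13, replicate 1 was lowest, as in ALMT1, and replicates 2 and 3 differed by -0.14 ± 0.20.

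**Figure D4:**
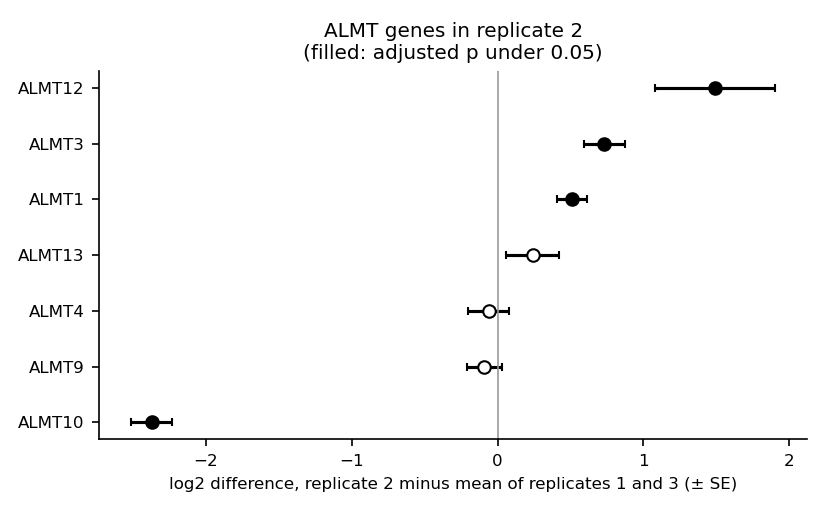
Log2 difference of replicate 2 from the mean of replicates 1 and 3 for the 7 tested ALMT genes, with its SE from edgeR. Filled points passed an adjusted p under 0.05. ALMT10 lies at -2.37, ALMT1 at 0.51 and ALMT3 at 0.73, ALMT12 at 1.49 rests on WT libraries alone, and ALMT4, ALMT9 and ALMT13 lie between -0.09 and 0.24.

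The make-up of the family differed between replicate numbers. The 10 members summed to 217, 244 and 281 CPM in 35S:NPC48 replicates 1, 2 and 3, and to 212, 262 and 256 CPM in those of WT. ALMT1 made up 37.7%, 63.7% and 58.4% of the summed CPM per kb in 35S:NPC48 and 36.0%, 58.6% and 50.8% in WT. ALMT10 made up 28.7%, 4.19% and 15.4% in 35S:NPC48 and 28.2%, 3.19% and 12.3% in WT. The share of ALMT10 was thus lowest in replicate 2 of both genotypes. ALMT9 held 11.2% to 16.6% in 35S:NPC48 and 14.5% to 17.8% in WT.

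The interaction between genotype and replicate 2 was tested to see whether these shifts differed between genotypes. By edgeR 0 of 19608 genes were called (0.0%), with 172 at an unadjusted p under 0.05. The interaction estimates were 0.08 ± 0.51 for ALMT10, -0.21 ± 0.39 for ALMT3 and -0.25 ± 0.54 for ALMT1 on the log2 scale. With errors of that size, a difference between genotypes as large as the shifts of ALMT1 and ALMT3 themselves was not detectable.

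Other anion channels were compared from a list of the slow-type SLAC/SLAH family and one of the CLC chloride and nitrate transporters. Over all tested genes 14.2% were called higher in replicate 2 and 12.2% lower, 26.4% in either direction, with a median of -0.01. Of 5 SLAC/SLAH genes, 4 were tested, and 3 were lower in replicate 2, with a list median of -1.31 on the log2 scale. SLAH1, an anion channel subunit of root vascular tissue, was at 4.52 CPM in 35S:NPC48 replicate 2 against 70.3 and 65.8 CPM in replicates 1 and 3, and at 1.52 CPM in WT replicate 2 against 73.9 and 46.0 CPM (log2 -4.45, edgeR adjusted p = 5.73e-05). SLAH3, a nitrate-permeable channel, was at 89.0 CPM in 35S:NPC48 replicate 2 against 370 and 299 CPM, and at 74.3 CPM in WT replicate 2 against 333 and 269 CPM (log2 -1.96, adjusted p = 2.10e-05). Like ALMT10, SLAH1 and SLAH3 were lowest in replicate 2 of both genotypes and were called in all 15 alternative settings. SLAH2 was lower by 0.66 on the log2 scale (adjusted p = 0.0234), but by 0.27 against replicate 1 alone (adjusted p = 0.365) and 1.05 against replicate 3 alone, and its call was lost in 6 of 15 alternatives. Of 7 CLC genes, 1 was called, CLCG (log2 -0.54, adjusted p = 0.0185), with a list median of -0.05.

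Genes of the aluminium response, among them STOP1, moved in both directions in replicate 2. Of 16, 15 were tested, 3 were higher (14.2% of all tested genes) and 5 lower (12.2%), with a median of -0.15, beside -0.01 over all. The count of 8 fell to 3 without 35S:NPC48 replicate 2 and 4 without WT replicate 2. STOP1, on which ALMT1 transcription depends, was named after its values were seen. It was at 148 CPM in 35S:NPC48 replicate 2 against 215 and 191 CPM in replicates 1 and 3, and at 139 CPM in WT replicate 2 against 199 and 251 CPM. Replicate 2 was lower by 0.57 on the log2 scale (edgeR adjusted p = 0.0172). The part of STOP1 in the ALMT1 values was not tested. Named by the size of their change, WRKY46, a repressor of ALMT1, was higher by 1.55 at under 1 CPM, a call lost in 9 of 15 alternatives. The tonoplast dicarboxylate transporter TDT was at -1.06, the polygalacturonase inhibitor PGIP1 was higher by 0.99 and the kinase CIPK23 was at -0.83 on the log2 scale.

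Of 19 malate metabolism genes, 18 were tested, with a median of 0.29, beside -0.01 over all tested genes. In replicate 2, 0 were lower (12.2% of all tested genes) and 6 were higher (14.2% of all). These were NADP-ME3 (1.23, edgeR adjusted p = 0.00405), a cytosolic malic enzyme, the mitochondrial malate dehydrogenases mMDH2 (0.88, adjusted p = 0.00163) and mMDH1 (0.59, adjusted p = 0.00423), MDH2 (0.65), FUM1 (0.47) and NAD-ME2 (0.38), with differences on the log2 scale. NADP-ME2 and MDH1, the most abundant of the list, were not called. This was 1 higher and 0 lower without 35S:NPC48 replicate 2, and 3 higher and 0 lower without WT replicate 2. It was 7 higher and 4 lower without 35S:NPC48 replicate 3, and 9 higher and 2 lower without WT replicate 3. By DESeq2, without WT replicate 1, and without both libraries of replicate 1, 1 gene was lower. Of the root markers 3 were higher (COBL9, EXPA7 and the phosphate transporter gene PHT1;1, at 0.96) and 1 was lower (SCR, at -0.46). Of the shoot genes 1 was lower (LHCB4.1, at -0.81), and 0 of 2 tested guard cell genes were called.

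**Figure D5:**
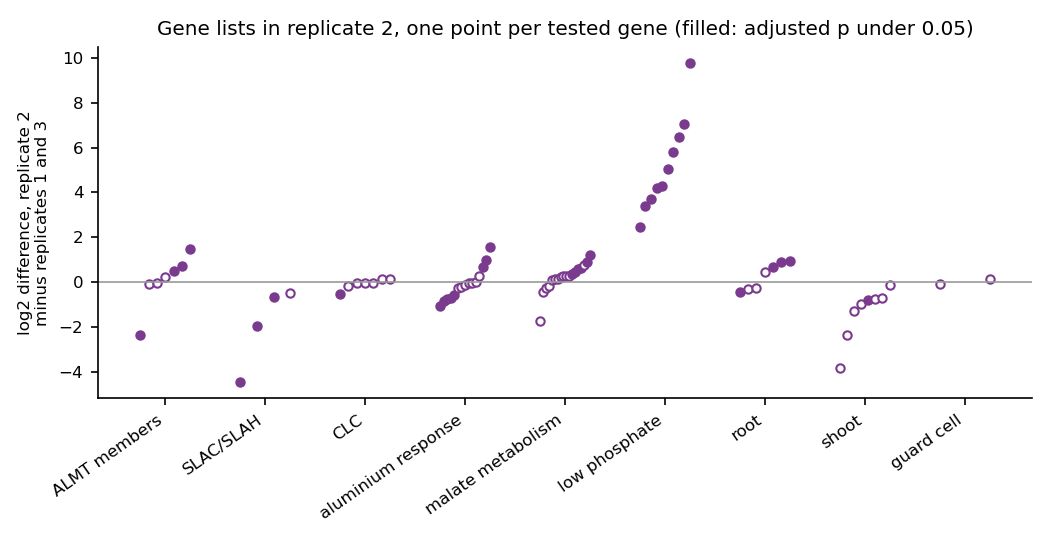
Log2 difference of replicate 2 from replicates 1 and 3, with one point per tested gene of the ALMT members and of 8 gene lists. Filled points passed an adjusted p under 0.05 by edgeR. The low-phosphate genes lie between 2.44 and 9.77, SLAH1 lies at -4.45, and the ALMT members lie on both sides of 0.

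Between genotypes, edgeR called 0 of the 71 tested list genes without a block (0.0102% of all tested genes) and 0 with the replicate block (1.21%). At an unadjusted p under 0.05 in these edgeR fits there were 1 and 7 of the list genes. Over all 19608 tested genes there were 695 without and 2203 with the block, so nothing is read from these counts. DESeq2 and limma-voom also called 0 of the list genes.

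The genes with a profile most like that of the 3 most variable members over the 6 libraries were found by Pearson's r of log2 CPM, given here as a description of 6 points that share depth, replicate number and genotype. For ALMT10 these were ETFQO (0.997), an electron transfer enzyme of mitochondria, AT5G63190 (0.996) and AT5G60050 (0.996). ETFQO ranged only from 33.7 to 43.0 CPM, so a high r does not mean a shift of like size. For ALMT12 they were AT1G62190 (0.994), AT2G30710 (0.993) and AT1G11280 (0.992). AT1G62190 stood at 0.901 to 0.959 CPM in 35S:NPC48 and 1.77 to 2.37 CPM in WT. AT2G30710 stood at 36.0 to 36.1 CPM in 35S:NPC48 and only 40.8 to 44.2 CPM in WT. Since ALMT12 was named for its absent counts in 35S:NPC48, nothing is read from the likeness of these genes to it. For ALMT1 they were AT3G21710 (0.993), AT4G16510 (0.990) and MTACP-1 (0.988), a mitochondrial acyl carrier protein. AT3G21710 was lowest in replicate 1, at 143 CPM in 35S:NPC48 and 138 CPM in WT, and at 172 to 201 CPM elsewhere.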

How the data were processed

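Roots of 35S:NPC48 and WT were profiled by polyA RNA-seq (TruSeq), and the values are whole, unscaled read counts for each gene and library as the authors deposited them. The submitters' processing notes name TAIR10 as the build, and as tools Subread 1.6.5, featureCounts, STAR 2.5.2b and Trimmomatic 0.36. No source used here gives the annotation release, the strand setting or the handling of multiply matched reads. Of 29613 IDs, 28494 matched RefSeq TAIR10.1, from which gene models and sequences were taken by gene ID, and 353 were transposable elements.

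Tests used edgeR 4.0.16 under R 4.3.3 (TMM, filterByExpr with minimum count 10 and total 15, quasi-likelihood F test, Benjamini-Hochberg over 19608 genes, threshold 0.05). The filter went by genotype, and SPX3, which was high in replicate 2, did not pass it. SE is the log2 value over the root of F. CPM used TMM-scaled totals, with a prior count of 2 for log2 CPM. The scripts were tested on simulated counts. Alternatives were limma 3.58.1, DESeq2 1.42.0 on the filtered counts, other scaling, no filter, left-out libraries and the replicate block. Libraries of one genotype differed by 16.9 to 99.8 chi-square per degree of freedom, so none was counted as a copy.

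Deviations from the genotype means correlated by 0.53, 0.83 and 0.37 between same-numbered libraries (replicates 1, 2 and 3), so numbers were read as pairing, from the labels and this check. For 35S:NPC48 replicate 3 the correlation with WT replicate 1 was 0.39, so replicates 1 and 3 were hardly told apart.

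The members, the 10 lists with 95 genes and the contrast of replicate 2 were chosen with earlier results of these data known. Named were all ALMT genes, of each list up to 4 called genes with the largest change or else up to 3 of the most abundant, the 5 annotated genes on either side of ALMT12, and the 3 genes most like each of the 3 most variable members. Further list genes (MDH2, FUM1, NAD-ME2, MDH1, NADP-ME2, STOP1 and the markers at 0) were named after their values were seen.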

Additional observations from a re-analysis of the deposited data

How the results depend on the processing

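Between genotypes edgeR without a block called 2 genes, and 0 to 2 when single libraries were left out (2 without WT replicate 2). DESeq2 called 157, limma-voom 0, the replicate block 237 (191, 118 and 1938 without both libraries of replicate 1, 2 or 3), a term for replicate 2 alone 195, and leaving out both replicate 2 libraries without a block 46, a setting added after seeing the data. Under each of these except limma-voom 1 ALMT member was called, ALMT12, against 0 in the fit without a block, and 0 when single libraries were left out. With the block and without replicate 3, 2 genes of the aluminium list, 1 of the malate list and 6 of the shoot list were called, against 0. The block over all libraries changed no other call among members and lists.

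Genotype differences of ALMT1, ALMT3, ALMT10 and ALMT13 changed sign with single libraries. On the log2 scale ALMT10 was -0.29 without 35S:NPC48 replicate 1 and -0.24 without WT replicate 2 (range with 1 library left out -0.29 to 0.96), ALMT1 was -0.01 without 35S:NPC48 replicate 3 and -0.07 without WT replicate 1 (-0.07 to 0.43), ALMT3 was 0.10 without WT replicate 2 (-0.48 to 0.10), and ALMT13 was 0.02 without WT replicate 3 (-0.42 to 0.02). ALMT4 was 0.03 when both replicate 2 libraries were left out, with or without the block.

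In the replicate 2 contrast 5176 genes were called, and 1372 to 8407 when libraries were left out (1372 without 35S:NPC48 replicate 2, 1997 without WT replicate 2, 8388 without 35S:NPC48 replicate 3, 8407 without WT replicate 3, 7857 without both of replicate 3). The 4 ALMT members became 1 to 5 with libraries left out, 1 without either replicate 2 library and 2 against replicate 3 alone. Left-out libraries gave 0 to 2 CLC genes (2 against replicate 1 alone), 3 to 11 aluminium genes, 1 to 11 malate genes, 0 to 8 shoot genes (0 against replicate 3 alone, 0 without 35S:NPC48 replicate 2, 8 without 35S:NPC48 replicate 3, 5 without WT replicate 1) and 1 to 7 root markers (1 without 35S:NPC48 replicate 2, 7 without 35S:NPC48 replicate 3). Log2 values changed sign for ALMT4 (0.13 without 35S:NPC48 replicate 2, 0.02 without 35S:NPC48 replicate 3, range -0.26 to 0.13), ALMT12 (-0.04 without WT replicate 2, range -0.04 to 1.61) and ALMT13 (-0.14 against replicate 3 alone or without replicate 1, range -0.14 to 0.59). The cause of these changes was not tested. The low-phosphate list kept 10 or 11 calls in every setting, and the ALMT12 bound ranged from 28.2 to 55.1. Of 544 values of single genes under alternatives, 474 kept their direction and side of the threshold, 49 lost a call, 8 gained one and 13 changed sign.

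Depth limits ALMT2, ALMT5 and ALMT6, which had at most 24 counts in a genotype and were not tested. The pollen markers and the 4 ALMT genes outside the members had no tested gene and no alternative was run for them.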
